A study of Mus musculus with 12 samples.

Results

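The day 3.5 and day 2.5 libraries of mouse CD4+ T cells cultured toward Th17 were compared. They were 4 of the 12 libraries of the series, chosen by their labels for culture and day. The day 3.5 pair held 1 NFATc1/ΔS and 1 WT library, and the day 2.5 pair likewise held 1 NFATc1/ΔS and 1 WT library. NFATc1/ΔS cells carry a form of the transcription factor NFATc1 that cannot be joined to the small protein SUMO, and WT cells carry the normal form. The study sequenced poly(A) RNA to ask how T helper cells behave without this modification, in Th1, Th2 and Th17 cultures. All 4 Th17 libraries came from T cells of spleen and lymph nodes of C57BL/6 mice, put on plates coated with anti-hamster IgG. The labels give 0.25 µg/ml anti-CD3, 1 µg/ml anti-CD28, 0.5 ng/ml TGFβ, 20 ng/ml IL-6 and 2.5 µg/ml each of antibodies against IFN-γ and IL-4, in IMDM medium with 5% serum. No group had a second library. The spread between the genotype pairs was therefore the only replicate error, and whether the effect of day differs between genotypes was not tested. Nothing in the labels ties a library to an animal or a culture of its own, so p-values cover only the spread between these libraries. The labels also give 3 days of stimulation in the Th17 protocol, a time between the 2 sampled days, and do not say what was changed around it.

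Th17 cells are helper T cells that defend mucosal surfaces by secreting IL-17A, IL-17F, IL-21 and IL-22. Naive CD4+ cells take this path when T cell receptor signals meet TGFβ, which acts through SMAD proteins, and IL-6, which acts through STAT3. The AP-1 partner factors BATF and IRF4 are needed early, and the cells then turn on lineage regulators and the IL-23 receptor. Activated T cells also enlarge, burn glucose and divide quickly during the first days of culture.

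The 4 libraries held 17774400 (NFATc1/ΔS, day 3.5), 13417121 (WT, day 3.5), 13968573 (NFATc1/ΔS, day 2.5) and 14160582 (WT, day 2.5) reads on genes. Levels are given as CPM, the usual scaling of a gene's count to its library's total, here the TMM-scaled total. TMM factors came from the 4 Th17 libraries for Th17 levels and from all 12 libraries for Th1 and Th2 levels. Levels compared between cultures therefore rest on 2 scalings. Libraries of the same day correlated at 0.987 (day 3.5) and 0.986 (day 2.5) across genes, on log2 CPM. Libraries of the same genotype correlated at 0.976 (NFATc1/ΔS) and 0.972 (WT) between days. The 50 most abundant genes took 17.2 and 17.5% of reads at day 3.5, against 21.7 and 20.3% at day 2.5.

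The labelled cell type was checked on its markers. Il17f, which encodes IL-17F, lay between 8.41 and 61.0 CPM in the Th17 libraries and at 1.14 CPM or less in every Th1 and Th2 library. Il17a, which encodes IL-17A, lay between 5.73 and 17.8 CPM in Th17, and its highest value in the other cultures was 2.31 CPM. Ccr6, the chemokine receptor of Th17 cells, lay between 20.1 and 29.6 CPM in Th17 and reached at most 4.39 CPM elsewhere. The IL-23 receptor gene Il23r was low, with 2.04 and 4.81 CPM at day 3.5, against 1.61 and 4.32 CPM at day 2.5. Il22 was at 1.22 CPM or less and Ccl20 at 0.0718 CPM or less in all 4 Th17 libraries, too low to test. Il21 did not set Th17 apart: the Th2 libraries had 615.3 and 625.5 CPM at day 3.5 and 310.8 and 380.2 CPM at day 2.5, more than the Th17 library of the same genotype and day in each case.

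Between day 2.5 and day 3.5 most listed genes of cell division and of ribosome assembly rose in the Th17 cultures, and most listed genes of glycolysis, hypoxia and ribosomal proteins fell. Of 12510 genes tested, 4365 (34.9%) passed the quasi-likelihood test of edgeR (Benjamini-Hochberg adjusted p under 0.05), 2200 of them higher (17.6%) and 2165 lower (17.3%) at day 3.5. Most changes were modest. The median size among genes that passed was 0.50 on the log2 scale, and 235 genes rose and 296 fell by more than 1. In 4364 of the 4365, both genotype pairs moved the same way, which the paired test itself selects for. Over all 12510 tested genes the day differences of the 2 genotypes correlated at 0.595 (Pearson). Each genotype pair alone showed 717 (NFATc1/ΔS) and 831 (WT) tested genes that moved by more than 1 log2 unit, and 291 of these moved together in both. These are mixed cultures, so fewer cells of a type and less RNA per cell cannot be told apart. The count rested on the pairing: 2851 genes passed without genotype in the model. With 1 library left out and no genotype term, 612 passed without WT day 2.5, 1437 without WT day 3.5, 992 without NFATc1/ΔS day 2.5 and 1820 without NFATc1/ΔS day 3.5.

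**Figure D1:**
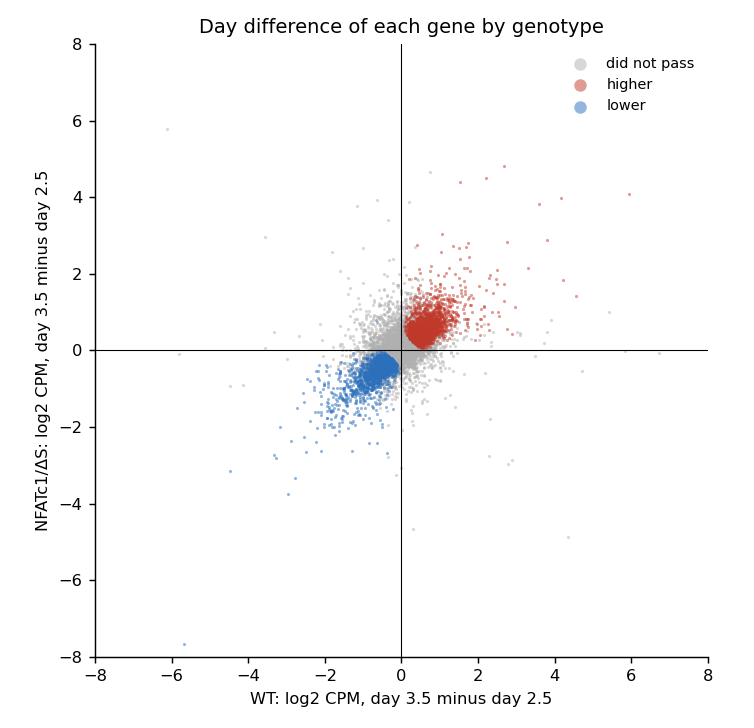
Each point is 1 of the 12510 tested genes, placed by its log2 CPM difference, day 3.5 minus day 2.5, in NFATc1/ΔS (vertical axis) and in WT (horizontal axis) cells. Genes that passed the test (red higher, blue lower) lie, in 4364 of 4365 cases, in the quadrants where both genotypes moved the same way. The paired test selects for such genes. Grey genes did not pass and spread around 0.

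The Th17 genes split. Il21 rose, several regulators of the lineage fell, and Il17a did not pass the test. Il21 (chr3:37222759-37232636 on GRCm38, minus strand) encodes IL-21, a cytokine that Th17 cells secrete and respond to. It had 308 CPM (NFATc1/ΔS) and 364 CPM (WT) at day 3.5, against 167 CPM (NFATc1/ΔS) and 171 CPM (WT) at day 2.5. The log2 fold change was 0.97 ± 0.11 (SE, edgeR adjusted p = 3.95e-09). Both day 3.5 libraries were above both day 2.5 libraries, and among all tested genes 64.9% likewise did not overlap between the days. Per length of exon, Il21 stood at 62.6 and 73.3 RPKM at day 3.5, while Il17f stood at 4.15 and 11.0 RPKM and Il17a at 5.31 and 11.7 RPKM in the same libraries.

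Il17f (chr1:20777146-20790617, minus strand) had 8.41 CPM (NFATc1/ΔS) and 21.5 CPM (WT) at day 3.5, against 14.8 CPM (NFATc1/ΔS) and 61.0 CPM (WT) at day 2.5. Its level fell in each pair, by 0.81 in NFATc1/ΔS and by 1.5 in WT on the log2 scale (pooled -1.23 ± 0.14, edgeR adjusted p = 4.69e-07). The day groups overlapped, because the WT library stood above its NFATc1/ΔS partner on both days. The call depended on the pairing: without genotype in the model the adjusted p was 0.479, and no fit with 1 library left out passed, with values between -2.20 (without WT day 3.5) and -0.04 (without WT day 2.5). Il17a had 5.73 and 12.8 CPM at day 3.5, against 5.82 and 17.8 CPM at day 2.5 (log2 fold change -0.29 ± 0.18, edgeR adjusted p = 0.200). Ccr6 and Il23r likewise stood within their own spread (edgeR adjusted p = 0.920 and 0.603).

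Among the transcription factors, Rora, which encodes the receptor RORα of the Th17 programme, had 76.8 and 78.4 CPM at day 3.5, against 112 and 130.3 CPM at day 2.5 (-0.65 ± 0.10, edgeR adjusted p = 2.84e-06). Stat3, which carries the IL-6 signal, had 518 and 523 CPM at day 3.5, against 658 and 732 CPM at day 2.5 (-0.43 ± 0.11, edgeR adjusted p = 0.00345). Ahr, the aryl hydrocarbon receptor that supports IL-22 production, had 14.9 (NFATc1/ΔS) and 15 CPM (WT) at day 3.5, against 21.1 (NFATc1/ΔS) and 37.8 CPM (WT) at day 2.5. For these 3 genes the days did not overlap, as for 64.9% of all tested genes. Ahr fell by 0.93 ± 0.17 (edgeR adjusted p = 0.00136).

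Irf4 moved the other way. It had 896 and 871 CPM at day 3.5, against 637 and 597 CPM at day 2.5 (0.51 ± 0.12, edgeR adjusted p = 0.000816), without overlap. Its partner Batf had 49.3 and 54.1 CPM at day 3.5, against 56.9 and 70.6 CPM at day 2.5 (-0.31 ± 0.10, edgeR adjusted p = 0.0164). Maf, a regulator of IL-10 and IL-21, had 17.6 (NFATc1/ΔS) and 40.9 CPM (WT) at day 3.5, against 24.6 (NFATc1/ΔS) and 45.4 CPM (WT) at day 2.5, so the days overlapped and it was lower in the paired fit (-0.31 ± 0.12, edgeR adjusted p = 0.0353), with values of 0.20 without WT day 2.5 and 0.22 without NFATc1/ΔS day 3.5. Of the 34 genes of the Th17 list, 30 were tested: 4 rose, 11 fell and 15 did not pass. Among all tested genes 17.6% rose and 17.3% fell. The list's median log2 fold change was -0.15, against 0.02 over all tested genes. The list's median was 0.21 without WT day 2.5 and 0.04 without NFATc1/ΔS day 3.5, in fits with no genotype term. It was -0.28 without the NFATc1/ΔS pair and -0.10 without the WT pair, where both days kept the same genotype. The 11 falls became 1 without WT day 2.5, 2 without either day 3.5 library and 3 without NFATc1/ΔS day 2.5. The regulators of the neighbouring lineages did not pass: Tbx21 (4.34 and 2.58 CPM at day 3.5, against 3.98 and 4.03 CPM at day 2.5), Gata3 (74.6 and 60.2 CPM, against 78.8 and 70.5 CPM) and Foxp3 (6.86 and 4.59 CPM, against 5.21 and 3.74 CPM).

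Of these Th17 genes, Il21 and Rora passed in all 4 fits that leave out 1 library, and Irf4 in 3 of them (not without WT day 2.5, adjusted p = 0.0658). Stat3 and Ahr passed in 1 of the 4. The Stat3 values that did not pass were -0.37 without WT day 2.5, -0.45 without WT day 3.5 and -0.41 without NFATc1/ΔS day 3.5. For Ahr they were -0.53 without WT day 2.5, -1.01 without WT day 3.5 and -0.98 without NFATc1/ΔS day 3.5. Batf passed in none, with values between -0.46 and -0.17.

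**Figure D2:**
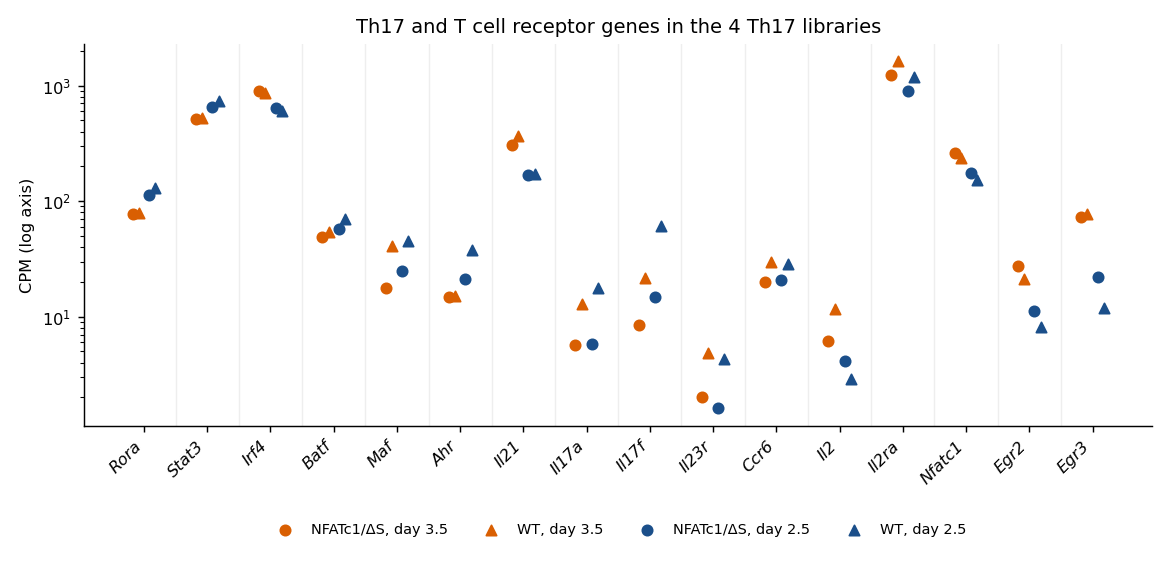
CPM (log axis) of Th17 and T cell receptor genes in each of the 4 Th17 libraries, orange for day 3.5 and blue for day 2.5, circles for NFATc1/ΔS and triangles for WT. Both orange points of Il21, Irf4, Nfatc1, Egr2 and Egr3 lie above both blue points, both orange points of Rora, Stat3 and Ahr lie below them, and those of Il17a, Il17f, Il23r, Ccr6 and Maf overlap with blue.

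Several genes of the TGFβ and IL-6 signals, the cytokines of the Th17 culture, fell. In the comparison with Th2, given below, the day effect differed for 1 of 22 TGFβ and SMAD genes and 0 of 21 IL-6 and STAT3 genes. It differed for 1.49% of all genes tested there. Smad3 changed by -0.60 and Socs3 by -1.03 in Th2, where the labels give neither cytokine. Of the 22 tested genes of the TGFβ and SMAD list, 10 fell and 3 rose (median -0.25), beside 17.3% of all tested genes that fell. The 10 falls became 4 without WT day 2.5, 5 without NFATc1/ΔS day 2.5, 8 without WT day 3.5 and 9 without NFATc1/ΔS day 3.5. Smad3, a SMAD that the TGFβ receptor phosphorylates, had 75.2 and 72.4 CPM at day 3.5, against 127 and 130.4 CPM at day 2.5 (-0.81 ± 0.10, edgeR adjusted p = 4.40e-08). The inhibitory SMAD gene Smad7 had 38.4 and 34.0 CPM at day 3.5, against 53.4 and 48.7 CPM at day 2.5, and the receptor gene Tgfbr2 had 102 and 90.2 CPM at day 3.5, against 144 and 132 CPM at day 2.5. Neither gene's days overlapped, as for 64.9% of all tested genes, and their log2 fold changes were -0.51 ± 0.10 and -0.54 ± 0.10. The ligand gene Tgfb3 (chr12:86056745-86079041, minus strand) fell most in this list, to 55.9 and 48.3 CPM at day 3.5, against 109.9 and 137 CPM at day 2.5 (-1.25 ± 0.11, edgeR adjusted p = 9.84e-09). Of its reads 51.5% mapped uniquely. Tgfb1, the main ligand of T cells, had 316 (NFATc1/ΔS) and 339.9 CPM (WT) at day 3.5, against 298 (NFATc1/ΔS) and 233 CPM (WT) at day 2.5 (0.30 ± 0.11, edgeR adjusted p = 0.0370). Of these genes Smad3 and Tgfb3 passed in all 4 fits with 1 library left out, Tgfbr2 in 3, Smad7 in 1 and Tgfb1 in 0.

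Of the 21 tested genes of the IL-6 and STAT3 list, 10 fell and 1 rose (median -0.27), beside 17.3% and 17.6% of all tested genes. The 10 falls became 2 without WT day 2.5, 3 without WT day 3.5, 4 without NFATc1/ΔS day 2.5 and 6 without NFATc1/ΔS day 3.5. Socs3 (chr11:117966079-117970047, minus strand) encodes the inhibitor that STAT3 induces against itself. It had 109 (NFATc1/ΔS) and 73.2 CPM (WT) at day 3.5, against 239.5 (NFATc1/ΔS) and 172 CPM (WT) at day 2.5 (-1.20 ± 0.10, edgeR adjusted p = 1.68e-11). The lower day 2.5 value was still above the higher day 3.5 value. Fosl2, which encodes an AP-1 factor that restrains Th17 plasticity, had 215 and 214 CPM at day 3.5, against 410.0 and 426 CPM at day 2.5 (-0.98 ± 0.11, edgeR adjusted p = 4.24e-09). The shared receptor chain gene Il6st had 51.9 and 30.8 CPM at day 3.5, against 65.0 and 55.7 CPM at day 2.5 (-0.59 ± 0.11). Il6ra, the other receptor chain, was the 1 gene of the list that rose, with 131 and 115 CPM at day 3.5, against 92.4 and 100.1 CPM at day 2.5 (0.34 ± 0.10). Fosl2 passed in all 4 fits with 1 library left out and Socs3 in 2 of them. Il6st passed in 1, with values between -0.97 and -0.24, and Il6ra in 0, with values between 0.25 and 0.42.

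The T cell receptor response was divided as well. Of 39 tested early response genes 11 rose and 14 fell (median -0.21), beside 17.6% and 17.3% of all tested genes. The 14 falls became 6 to 8 without single libraries, and the 11 rises became 2 without WT day 2.5, 3 without WT day 3.5 and 5 without either NFATc1/ΔS library. The genes that rose included NFAT and EGR factors. Egr2 had 27.3 and 21.4 CPM at day 3.5, against 11.2 and 8.21 CPM at day 2.5 (1.32 ± 0.14, edgeR adjusted p = 3.57e-09). Egr3 had 73.5 and 77.1 CPM at day 3.5, against 22.1 (NFATc1/ΔS) and 11.9 CPM (WT) at day 2.5 (2.17 ± 0.32, edgeR adjusted p = 0.0373). EGR2 and EGR3 are zinc finger factors that NFAT induces and that restrain activation. Nfatc1 itself, the factor that the mutation alters, had 263 and 234 CPM at day 3.5, against 174 and 152 CPM at day 2.5 (0.60 ± 0.10, edgeR adjusted p = 1.44e-05). The days did not overlap for any of these 3 genes, nor for 64.9% of all tested genes. With 1 library left out, Egr2 passed in all 4 fits, Nfatc1 in all but that without WT day 2.5 (adjusted p = 0.0755), and Egr3 in all but those without WT day 3.5 (adjusted p = 0.0776) and without NFATc1/ΔS day 3.5 (adjusted p = 0.0712). The relative Nfatc2 had 144 and 139.5 CPM at day 3.5, against 139 and 152 CPM at day 2.5 and did not pass (edgeR adjusted p = 0.759).

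Immediate early genes were among those that fell. Zfp36, which encodes a protein that destabilises cytokine mRNAs, had 76.8 and 67.6 CPM at day 3.5, against 163 and 130.2 CPM at day 2.5 (-1.03 ± 0.10). Jun had 36.7 and 33.7 CPM at day 3.5, against 63.1 and 63.7 CPM at day 2.5 (-0.86 ± 0.10). Nfkbia, the NF-κB inhibitor, had 164 and 190.5 CPM at day 3.5, against 280.2 and 290.5 CPM at day 2.5 (-0.70 ± 0.10). The days did not overlap for these 3 genes, as for 64.9% of all tested genes. The ubiquitin ligase gene Cblb, a brake on T cell receptor signalling, also fell (-0.74 ± 0.11), whereas Nr4a1 had 248 and 199.9 CPM at day 3.5, against 252 and 234 CPM at day 2.5 and did not pass.

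Il2, the T cell growth factor, was low on both days, with 6.16 (NFATc1/ΔS) and 11.7 CPM (WT) at day 3.5, against 4.13 (NFATc1/ΔS) and 2.88 CPM (WT) at day 2.5 (1.28 ± 0.31, edgeR adjusted p = 0.00716). The WT pair carried most of that difference, and without it the fold change was 0.53 (adjusted p = 0.334, spread taken with Th2). Il2ra, the high affinity receptor chain, had 1238 (NFATc1/ΔS) and 1621 CPM (WT) at day 3.5, against 899 (NFATc1/ΔS) and 1188 CPM (WT) at day 2.5 (0.44 ± 0.12, edgeR adjusted p = 0.00507). Socs2, a STAT5 target, had 87.9 and 119 CPM at day 3.5, against 36.8 and 48.5 CPM at day 2.5 (1.26 ± 0.10, edgeR adjusted p = 3.78e-12). Of the 28 tested genes of the IL-2 and STAT5 list 7 rose and 10 fell (median -0.17), beside 17.6% and 17.3% of all tested genes. Among 28 tested cytokine genes 9 rose and 5 fell (median 0.05), and Lif rose to 258 and 316 CPM at day 3.5, against 132 and 239.6 CPM at day 2.5 (0.67 ± 0.12). Socs2 passed in all 4 fits with 1 library left out. Il2 and Lif passed in 1, with values of 0.79 to 1.74 for Il2 and 0.25 to 1.09 for Lif, and Il2ra passed in 0, with values of 0.22 to 0.64.

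Cell cycle genes were the most uniform of the 37 lists. All 49 tested genes of the G2 and mitosis list rose, by 0.43 to 1.05 on the log2 scale (median 0.69), beside 17.6% of all tested genes. Of 46 tested genes of G1/S and DNA replication 41 rose and 0 fell (median 0.63). Mki67, the proliferation marker, had 802 and 659 CPM at day 3.5, against 401 and 394 CPM at day 2.5 (0.86 ± 0.12, edgeR adjusted p = 2.81e-07). Ccnb2, a mitotic cyclin, had 148 and 137 CPM at day 3.5, against 74.7 and 62.5 CPM at day 2.5 (1.05 ± 0.10, edgeR adjusted p = 2.81e-10). In replication, Mcm2, a subunit of the DNA helicase, had 180.2 and 193 CPM at day 3.5, against 113 and 90.6 CPM at day 2.5 (0.87 ± 0.11). The cell cycle inhibitor gene Cdkn1b, which encodes p27, fell to 112 and 98.6 CPM at day 3.5, against 186 and 173 CPM at day 2.5 (-0.78 ± 0.10, edgeR adjusted p = 1.14e-07). Cdkn1a, which encodes p21, had 294 and 309 CPM at day 3.5, against 350.4 and 334 CPM at day 2.5 and did not pass (edgeR adjusted p = 0.155). Of 25 tested cell cycle inhibitors and p53 targets 9 rose and 8 fell (median -0.06). With 1 library left out, 12 mitotic genes passed without WT day 2.5 and 38 to 46 without the other libraries. For replication genes 7 passed without WT day 2.5, 22 without WT day 3.5, 23 without NFATc1/ΔS day 3.5 and 29 without NFATc1/ΔS day 2.5.

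Promoters of mitotic genes often hold the cell cycle genes homology region, whose core is TTTGAA. Among 42 mitotic genes with a promoter in RefSeq (GRCm38.p6, 250 bases before to 50 after the start), 29 held TTTGAA or its reverse complement TTCAAA (69.0%), against 12.0% of the promoters of 9535 tested genes and 17.9% of all 32851 promoters. Both strands were searched, and a match is a description of the letters, not a binding site. The promoters of Ccnb2 (chr9:70421505-70421804, minus strand) and of Kif11 (chr19:37376132-37376431, plus strand) are shown. They were chosen by smallest p among the members that rose and held the motif. Both genes also rose in all 4 fits with 1 library left out. Kif11, which encodes a spindle motor, had 255 and 211 CPM at day 3.5, against 127 and 114 CPM at day 2.5. Capitals mark the matches, and each sequence reads 5′ to 3′ along the gene.
Ccnb2: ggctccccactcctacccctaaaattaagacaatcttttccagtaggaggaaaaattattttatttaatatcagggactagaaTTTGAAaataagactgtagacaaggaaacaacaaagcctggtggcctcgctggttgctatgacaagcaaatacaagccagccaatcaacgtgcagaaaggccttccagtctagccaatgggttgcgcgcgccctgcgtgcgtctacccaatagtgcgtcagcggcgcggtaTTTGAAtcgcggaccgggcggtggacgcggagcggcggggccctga
Kif11: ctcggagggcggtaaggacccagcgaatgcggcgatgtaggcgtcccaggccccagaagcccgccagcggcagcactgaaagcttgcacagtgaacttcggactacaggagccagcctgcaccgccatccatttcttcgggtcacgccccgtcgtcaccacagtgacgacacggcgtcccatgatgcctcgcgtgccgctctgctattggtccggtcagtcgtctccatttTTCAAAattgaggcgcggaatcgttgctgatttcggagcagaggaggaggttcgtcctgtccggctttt

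Ribosome genes moved in opposite directions. Of 50 tested genes of ribosome biogenesis and Myc targets 32 rose and 7 fell (median 0.38). Of 36 tested genes for ribosomal proteins and translation factors 28 fell and 0 rose (median -0.39). Among all tested genes 17.6% rose and 17.3% fell. The summed level of the ribosome biogenesis list did not follow its count, at 7288.6 (NFATc1/ΔS) and 8277.6 CPM (WT) at day 3.5, against 8908.2 (NFATc1/ΔS) and 8685.9 CPM (WT) at day 2.5. Nolc1, a nucleolar chaperone gene, had 96.0 and 103 CPM at day 3.5, against 56.0 and 46.9 CPM at day 2.5 (0.94 ± 0.10, edgeR adjusted p = 1.14e-08). Nop56, which encodes a core protein of the particles that methylate rRNA, had 120.1 and 128 CPM at day 3.5, against 72.9 and 63.6 CPM at day 2.5 (0.85 ± 0.10). The most abundant nucleolar genes did not follow: Npm1 fell to 1658 and 1910.0 CPM at day 3.5, against 3241 and 2988 CPM at day 2.5 (-0.82 ± 0.14, edgeR adjusted p = 1.53e-05). Ncl, which encodes nucleolin, had 907 and 991 CPM at day 3.5, against 1272 and 1210.0 CPM at day 2.5 (-0.40 ± 0.12). Myc had 310.5 and 304 CPM at day 3.5, against 225 and 263 CPM at day 2.5 (0.33 ± 0.11, edgeR adjusted p = 0.0142). Nolc1, Nop56 and Npm1 passed in all 4 fits with 1 library left out, and Ncl and Myc in 0.

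Rpl22, a protein of the large ribosomal subunit, had 613 and 590.4 CPM at day 3.5, against 909.8 and 862 CPM at day 2.5 (-0.57 ± 0.12, edgeR adjusted p = 0.000208), with 95.9% of reads unique. Rplp0 had 4034 and 4112 CPM at day 3.5, against 5992 and 5521 CPM at day 2.5 (-0.51 ± 0.15), with 59.5% unique. Most ribosomal protein genes share reads with near-identical copies elsewhere in the genome (0.1% unique for Rps6), so their single values are uncertain. This group rested on few libraries. Its 28 falls became 25 without the WT pair and 1 without the NFATc1/ΔS pair. Leaving out single libraries, 21 fell without WT day 2.5, 1 without WT day 3.5, 3 without NFATc1/ΔS day 2.5 and 1 without NFATc1/ΔS day 3.5. For ribosome biogenesis the 32 that rose became 11 without the WT pair and 30 without the NFATc1/ΔS pair. With 1 library left out they became 2 without WT day 2.5, 12 without WT day 3.5, 10 without NFATc1/ΔS day 2.5 and 27 without NFATc1/ΔS day 3.5.

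Glycolysis and hypoxia genes fell together. Of 48 tested genes 35 fell and 1 rose (median -0.54), beside 17.3% of all tested genes that fell. Glucose enters T cells through the transporters of Slc2a1 and Slc2a3. Slc2a1 had 262 and 303 CPM at day 3.5, against 511 and 492 CPM at day 2.5 (-0.84 ± 0.11, edgeR adjusted p = 1.94e-07), and Slc2a3 had 1032 and 1064 CPM at day 3.5, against 1765 and 1803 CPM at day 2.5 (-0.78 ± 0.13). Hk2, which encodes the hexokinase that traps glucose, had 204 and 256 CPM at day 3.5, against 297 and 360.3 CPM at day 2.5 (-0.53 ± 0.10). None of these 3 overlapped between days, like 64.9% of all tested genes. Both transporter genes passed in all 4 fits with 1 library left out, and Hk2 in 1, with values between -0.71 and -0.36. At the end of the pathway the changes were smaller: Pkm, the pyruvate kinase gene, fell by 0.38 ± 0.15 on the log2 scale (edgeR adjusted p = 0.0479), and Ldha, the lactate dehydrogenase gene, did not pass (-0.34 ± 0.14, edgeR adjusted p = 0.0585). The Pkm call was lost in all 4 fits with 1 library left out.

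The largest falls in the list were of genes known to respond to hypoxia. Hilpda, a lipid droplet gene, had 30.3 and 44.7 CPM at day 3.5, against 114 and 111 CPM at day 2.5 (-1.62 ± 0.13, edgeR adjusted p = 3.48e-07). Ndrg1 had 515 and 498 CPM at day 3.5, against 1166 and 1214 CPM at day 2.5 (-1.24 ± 0.12), with 48.9% of reads unique. Ddit4, an inhibitor of mTORC1, had 225 and 249.8 CPM at day 3.5, against 550.1 and 489 CPM at day 2.5 (-1.14 ± 0.11, edgeR adjusted p = 6.26e-10). Outside the list, Adm, the hypoxia-inducible gene of adrenomedullin, was among the largest falls of all genes, with 1.55 and 2.01 CPM at day 3.5, against 10.3 and 9.00 CPM at day 2.5 (-2.46 ± 0.25), and 14.6% of its reads were unique. Hif1a, which encodes the oxygen-regulated subunit of the hypoxia-inducible factor, had 828 and 963 CPM at day 3.5, against 881 and 969 CPM at day 2.5 and did not pass (edgeR adjusted p = 0.725), with 21.7% of reads unique. Egln3, an oxygen-dependent hydroxylase that hypoxia induces in many cells, had 1058 and 1244 CPM at day 3.5, against 1124 and 1077 CPM at day 2.5 and did not pass either. The count of 35 falls was 30 without the NFATc1/ΔS pair and 35 without the WT pair. Leaving out single libraries gave 19 without WT day 2.5, 23 without NFATc1/ΔS day 3.5, 24 without NFATc1/ΔS day 2.5 and 30 without WT day 3.5.

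The core of the site that hypoxia-inducible factors bind is ACGTG. It stood, on either strand (reverse complement CACGT), in the promoters of 26 of the 44 glycolysis and hypoxia genes with a RefSeq promoter (59.1%), against 26.6% of the promoters of tested genes and 19.6% of all promoters. Among the members that fell it stood in 19 of 31 (61.3%). The promoters of Ddit4 (chr10:59951721-59952020, minus strand), Ankrd37 (chr8:45999801-46000100, minus strand) and Ier3 (chr17:35821463-35821762, plus strand) are shown. They were chosen by smallest p among the members that fell and held the motif. These genes also fell in all 4 fits with 1 library left out. Capitals mark the matches. Ankrd37 had 18.3 and 19.7 CPM at day 3.5, against 39.7 and 43.4 CPM at day 2.5, and Ier3, an immediate early gene of survival signalling, had 15.2 and 14.4 CPM at day 3.5, against 29.9 and 31.5 CPM at day 2.5.
Ddit4: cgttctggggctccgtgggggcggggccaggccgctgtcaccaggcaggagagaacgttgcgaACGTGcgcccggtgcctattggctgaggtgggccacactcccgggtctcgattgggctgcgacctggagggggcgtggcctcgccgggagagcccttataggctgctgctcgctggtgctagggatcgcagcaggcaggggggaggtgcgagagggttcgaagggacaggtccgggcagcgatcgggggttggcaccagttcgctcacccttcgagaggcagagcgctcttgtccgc
Ankrd37: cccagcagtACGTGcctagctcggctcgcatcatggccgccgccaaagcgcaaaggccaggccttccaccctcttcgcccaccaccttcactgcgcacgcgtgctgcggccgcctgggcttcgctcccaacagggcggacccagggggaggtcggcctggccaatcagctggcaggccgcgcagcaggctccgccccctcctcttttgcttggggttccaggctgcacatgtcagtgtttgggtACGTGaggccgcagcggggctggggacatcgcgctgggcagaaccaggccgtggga
Ier3: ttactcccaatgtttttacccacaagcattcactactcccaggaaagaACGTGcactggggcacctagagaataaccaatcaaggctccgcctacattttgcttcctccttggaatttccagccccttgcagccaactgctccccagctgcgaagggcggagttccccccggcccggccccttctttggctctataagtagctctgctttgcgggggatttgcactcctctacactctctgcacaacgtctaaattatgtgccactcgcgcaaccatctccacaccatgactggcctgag

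**Figure D3:**
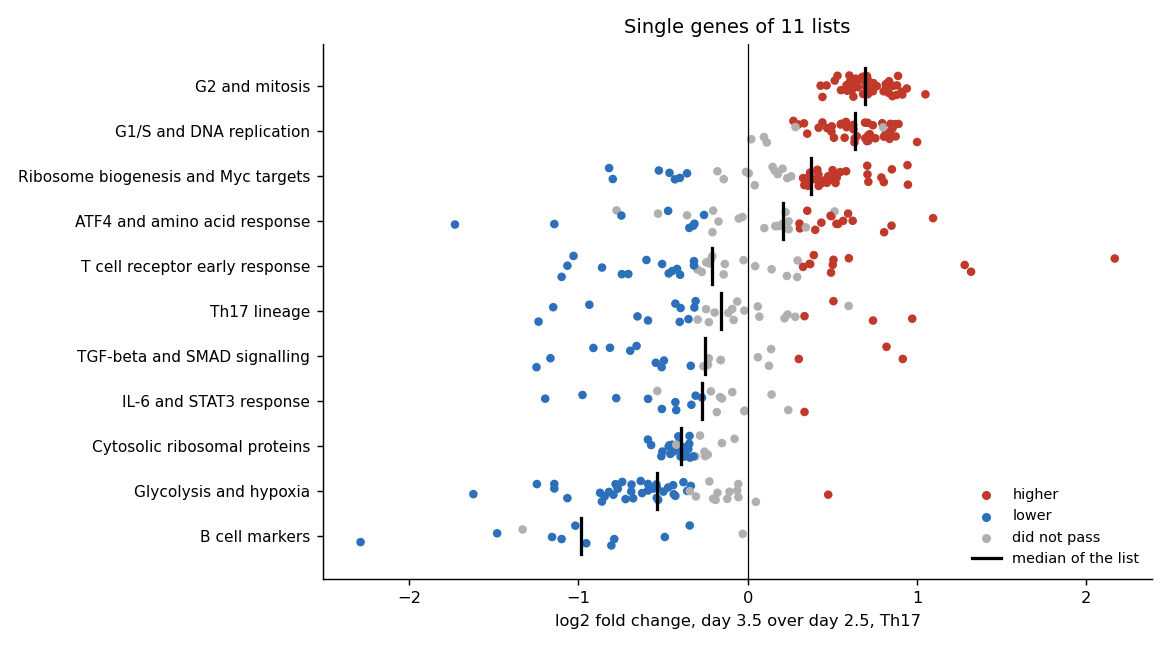
Each point is 1 tested gene of 11 lists, placed by its log2 fold change, day 3.5 over day 2.5, in Th17. Red genes were higher, blue genes lower and grey genes did not pass, and the black bar is the list's median, 0.69 for G2 and mitosis and -0.54 for glycolysis and hypoxia.

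Other metabolic lists moved less uniformly, beside 17.6% of all tested genes that rose and 17.3% that fell. Of 41 tested ATF4 and amino acid response genes 15 rose and 8 fell (median 0.21). The 15 rises became 2 without WT day 2.5, 4 without WT day 3.5 or NFATc1/ΔS day 2.5 and 12 without NFATc1/ΔS day 3.5. Slc1a5, the glutamine transporter, had 178 and 175 CPM at day 3.5, against 100.4 and 93.7 CPM at day 2.5 (0.85 ± 0.10, edgeR adjusted p = 2.26e-08), and Wars, a tRNA synthetase gene, had 71.7 and 79.5 CPM at day 3.5, against 42.8 and 42.8 CPM at day 2.5 (0.81 ± 0.10). Atf4 itself had 178 and 198 CPM at day 3.5, against 203 and 244 CPM at day 2.5 (-0.26 ± 0.10, edgeR adjusted p = 0.0441), and passed in 0 of 4 fits with 1 library left out. Among 47 nuclear genes of oxidative phosphorylation 9 rose and 5 fell (median 0.03), among 13 mitochondrially encoded genes 0 rose and 2 fell (median -0.22, and 0.07 without the NFATc1/ΔS pair), and among 38 sterol and fatty acid genes 4 rose and 2 fell (median 0.02). Of 29 endoplasmic reticulum folding genes 4 rose and 7 fell (median -0.11), and of 20 heat shock genes 5 rose and 5 fell (median 0.02).

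Homing and lineage genes changed in part. Of 30 naive and memory genes 4 rose and 13 fell (median -0.18), beside 17.6% and 17.3% of all tested genes. The 13 falls became 2 without NFATc1/ΔS day 2.5, 3 without either WT library and 11 without NFATc1/ΔS day 3.5. Ccr7, the receptor that guides T cells into lymph nodes, had 537 (NFATc1/ΔS) and 369 CPM (WT) at day 3.5, against 928 (NFATc1/ΔS) and 866 CPM (WT) at day 2.5 (-1.02 ± 0.12, edgeR adjusted p = 5.40e-08). Both day 3.5 libraries were below both day 2.5 libraries. S1pr1, the egress receptor, had 57.1 and 37.5 CPM at day 3.5, against 68.9 and 61.9 CPM at day 2.5 (-0.50 ± 0.11). Among 19 chemokine and receptor genes 1 rose and 7 fell (median -0.20), with Cxcr4 at 36.0 and 43.6 CPM at day 3.5, against 72.8 and 78.6 CPM at day 2.5 (-0.94 ± 0.10). Cxcr4 passed in all 4 fits with 1 library left out, Ccr7 in 2 and S1pr1 in 1.

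Beside the lists that follow, 17.6% of all tested genes rose and 17.3% fell. Of 22 Treg genes 5 rose and 7 fell (median -0.20). Of 17 Tfh and Tox genes 8 rose and 5 fell (median 0.05), and of 16 co-inhibitory genes 5 rose and 5 fell (median -0.14). Pdcd1, which encodes PD-1, had 36.1 and 37.5 CPM at day 3.5, against 20.1 and 18.7 CPM at day 2.5 (0.91 ± 0.12, edgeR adjusted p = 2.23e-07). Nrp1, a surface receptor of Treg cells, had 20.1 and 22.4 CPM at day 3.5, against 9.04 and 9.21 CPM at day 2.5 (1.21 ± 0.15). Of 21 Th1 genes 1 rose and 7 fell (median -0.35). Runx3, a partner of the Th1 programme, had 157 and 163 CPM at day 3.5, against 311 and 297 CPM at day 2.5 (-0.94 ± 0.10, edgeR adjusted p = 5.30e-09). Of 15 Th2 genes 4 rose and 3 fell (median -0.15). Il4, the Th2 cytokine that the culture antibodies bind, was at 2.62 and 2.94 CPM at day 3.5, against 1.07 and 1.44 CPM at day 2.5 (1.14 ± 0.36, edgeR adjusted p = 0.0125). Il4 passed in 0 of 4 fits with 1 library left out, and Pdcd1, Nrp1 and Runx3 in all 4.

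Of 14 granzyme and cytotoxic genes 8 fell and 0 rose (median -0.46), beside 17.3% of all tested genes that fell. The 8 falls became 1 without NFATc1/ΔS day 2.5, 2 without WT day 2.5 or NFATc1/ΔS day 3.5, 4 without WT day 3.5 and 3 with DESeq2. Serpinb6b, a serpin, had 32.6 and 30.5 CPM at day 3.5, against 87.4 and 98.6 CPM at day 2.5 (-1.57 ± 0.10, edgeR adjusted p = 5.88e-14). Of 42 interferon-stimulated genes 11 rose and 4 fell (median 0.05). The 11 rises became 2 without WT day 2.5, 4 without WT day 3.5, 5 without NFATc1/ΔS day 2.5 and 7 without NFATc1/ΔS day 3.5. The GTPase gene Gbp2 had 66.4 and 62.1 CPM at day 3.5, against 39.9 and 29.1 CPM at day 2.5 (0.90 ± 0.11, edgeR adjusted p = 5.49e-08), without overlap. In the remaining lists 2 of 23 BCL2 family genes rose and 6 fell (median -0.14), 1 of 18 TNF receptor genes rose and 6 fell (median -0.26), and 8 of 31 S100, galectin and cytoskeleton genes rose and 8 fell (median 0.00).

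**Figure D4:**
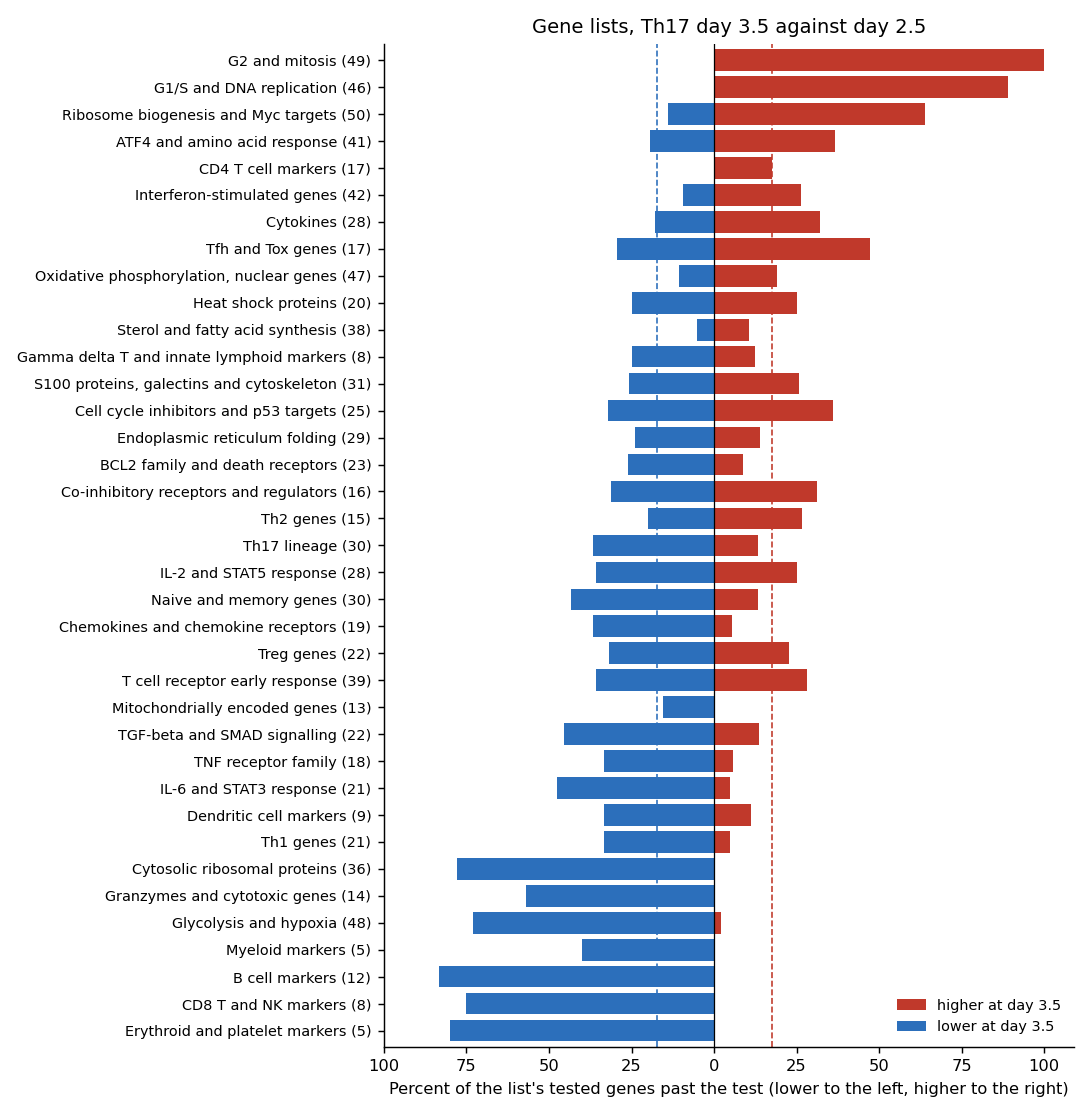
Percent of each list's tested genes (number in brackets) that passed the test, higher at day 3.5 to the right in red and lower to the left in blue. The dashed lines mark the shares among all tested genes, 17.6% higher and 17.3% lower, and lists are sorted by median log2 fold change with the most positive at the top.

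The largest rises included Muc13 (chr16:33794037-33819934, plus strand), a membrane mucin gene, with 18.8 (NFATc1/ΔS) and 32.7 CPM (WT) at day 3.5, against 2.53 (NFATc1/ΔS) and 4.75 CPM (WT) at day 2.5 (2.81 ± 0.17, edgeR adjusted p = 1.94e-15). Akr1c18 (chr13:4132615-4150654, minus strand), whose enzyme breaks down progesterone, had 33.3 (NFATc1/ΔS) and 106 CPM (WT) at day 3.5, against 7.73 (NFATc1/ΔS) and 18.7 CPM (WT) at day 2.5 (2.33 ± 0.12, edgeR adjusted p = 1.54e-16). Its family member Akr1c12 had 6.11 and 5.89 CPM at day 3.5, against 1.46 and 1.08 CPM at day 2.5 (2.23 ± 0.30). All 3 separated the days, as did 64.9% of all tested genes. Akr1c18 passed in no fit with 1 library left out, where its value lay between 1.30 and 3.13, while Muc13 and Akr1c12 passed in all 4. Spp1, which encodes the secreted protein osteopontin, rose by 2.02 and S100a4, a calcium-binding protein gene, by 1.62 on the log2 scale. Spp1 passed in 2 of the 4 fits with 1 library left out, with values between 1.45 and 2.82, and S100a4 in 1, with values between 0.80 and 3.02.

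The largest falls included Hey1 (chr3:8663359-8667256, minus strand), a Notch target gene, with 0.857 and 0.359 CPM at day 3.5, against 6.81 and 4.68 CPM at day 2.5 (-3.23 ± 0.35, edgeR adjusted p = 3.95e-09). Cd83, an activation marker, had 5.57 and 8.61 CPM at day 3.5, against 22 and 32.6 CPM at day 2.5 (-1.96 ± 0.15, edgeR adjusted p = 8.09e-13). Kit, the stem cell factor receptor, had 4.82 and 10.3 CPM at day 3.5, against 19.5 and 36.4 CPM at day 2.5 (-1.92 ± 0.15). None of these 3 overlapped between days, like 64.9% of all tested genes. Casz1, a zinc finger factor gene, was named for its difference from Th2, given below, and not for the size of its fall. It had 7.29 and 6.17 CPM at day 3.5, against 21.7 and 21.9 CPM at day 2.5 (-1.70 ± 0.15). Hey1, Cd83 and Casz1 passed in all 4 fits with 1 library left out, and Kit in 1, with values between -2.56 and -1.42.

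Markers of other cells were in part lower at day 3.5, beside 17.3% of all tested genes that fell. Of 12 tested B cell markers 10 fell and 0 rose (median -0.99), and the summed level of the 19 listed was 203.7 and 214.8 CPM at day 3.5, against 337.3 and 330.6 CPM at day 2.5. Of 8 tested CD8 T and NK markers 6 fell (summed 37.6 and 43.9 CPM at day 3.5, against 58.7 and 65.8 CPM at day 2.5), and of 5 tested erythroid and platelet markers 4 fell (3.60 and 4.00 CPM, against 21.2 and 25.6 CPM). Myeloid markers were low, at 14.6 and 11.5 CPM summed at day 3.5, against 23.4 and 18.7 CPM at day 2.5, with 5 tested, 2 of them lower, and 5 listed at 0 in all 4 libraries. Of 9 tested dendritic cell markers 3 fell, Cd83 among them, and 1 rose (summed 92.0 and 121.0 CPM at day 3.5, against 123.8 and 138.4 CPM at day 2.5). Of 8 tested γδ T and innate lymphoid markers 2 fell and 1 rose (283.0 and 323.1 CPM summed, against 242.5 and 353.4 CPM). The 10 B cell falls became 2 without either day 2.5 library, 3 without WT day 3.5, 4 without NFATc1/ΔS day 3.5 and 2 with DESeq2. The 6 CD8 T and NK falls became 0 without either day 2.5 library, 1 without either day 3.5 library and 0 with DESeq2. The 4 erythroid and platelet falls became 1 with unique reads and 0 with DESeq2, and the 2 myeloid falls became 0 with DESeq2. The defining B cell gene Cd79a stood at 1.18 and 1.22 CPM at day 3.5, against 2.45 and 2.38 CPM at day 2.5. Of 17 CD4 T cell markers 3 rose, a share near the 17.6% of all tested genes, and 0 fell, with sums of 7550.4 and 7458.2 CPM at day 3.5, against 7002.2 and 6848.0 CPM at day 2.5. The granzyme and Th1 lists share members with the CD8 T and NK list, and the part of other cells in any of these values was not tested.

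To see which changes were particular to Th17, the day effect was compared with that of the Th2 cultures. These used another medium and 0.5 µg/ml anti-CD3. Their labels give the antibody against IFN-γ but not that against IL-4, and neither TGFβ nor IL-6. The effects of medium, these conditions and cell type cannot be told apart. Of the 4365 genes that passed in Th17, 4061 (93.0%) had a day difference of the same sign in Th2, against 77.2% of all tested genes. The difference itself passed for 195 of 13086 genes (1.49%), 75 of them with a higher (0.573%) and 120 with a lower (0.917%) day effect in Th17 (edgeR with Benjamini-Hochberg adjustment). The count was 346 without Th17 NFATc1/ΔS day 2.5 and 322 without Th17 NFATc1/ΔS day 3.5. By list, 4 of the 49 G2 and mitosis genes had a higher day effect in Th17, and 2 of the 48 glycolysis and hypoxia genes and 1 of the 50 ribosome biogenesis genes a lower one. Those named above were Ccnb2 (difference 0.55 ± 0.12, edgeR adjusted p = 0.0357) and Ier3 (-0.84 ± 0.13, edgeR adjusted p = 0.00548). Slc2a1, for example, changed by -0.84 in Th17 and -0.78 in Th2, and the difference of -0.06 ± 0.15 did not pass. Other lists also held genes that differed. The day effect was lower in Th17 for 4 of 31 Th17 lineage, 4 of 18 Th2 and 4 of 28 IL-2 and STAT5 genes. It was higher for 5 of 43 interferon-stimulated genes and 4 of 30 naive and memory genes, where 1 was lower. These lists share members, such as Il24 in the Th17 and Th2 lists.

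Gbp2 and Gbp5, both guanylate-binding protein genes, differed. Gbp2 had a log2 day effect of 0.90 in Th17 and -0.97 in Th2 (difference 1.86 ± 0.14, edgeR adjusted p = 1.97e-05), and Gbp5 had 1.00 in Th17 and -0.60 in Th2 (difference 1.60 ± 0.18, edgeR adjusted p = 0.00054). Maf had -0.31 in Th17 and 0.76 in Th2 (difference -1.07 ± 0.14, edgeR adjusted p = 0.00124). Il24, a cytokine gene of the IL-10 family, had -0.23 in Th17 and 1.84 in Th2 (difference -2.07 ± 0.13, edgeR adjusted p = 1.93e-06). Il24 did not pass in Th17 alone, and Gbp2 moved in opposite directions in the 2 cultures. The Maf value in Th17 was above 0 without WT day 2.5 (0.20) and without NFATc1/ΔS day 3.5 (0.22), in fits with no genotype term. Klf2, a factor that controls S1pr1, had -0.37 in Th17 and -1.88 in Th2 (difference 1.52 ± 0.23, edgeR adjusted p = 0.00611). Cd83 fell in Th17 by 1.96, with -0.15 in Th2 (difference -1.81 ± 0.15, edgeR adjusted p = 4.17e-05), and Casz1 fell by 1.70, with -0.13 in Th2 (difference -1.57 ± 0.15, edgeR adjusted p = 0.000178).

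**Figure D5:**
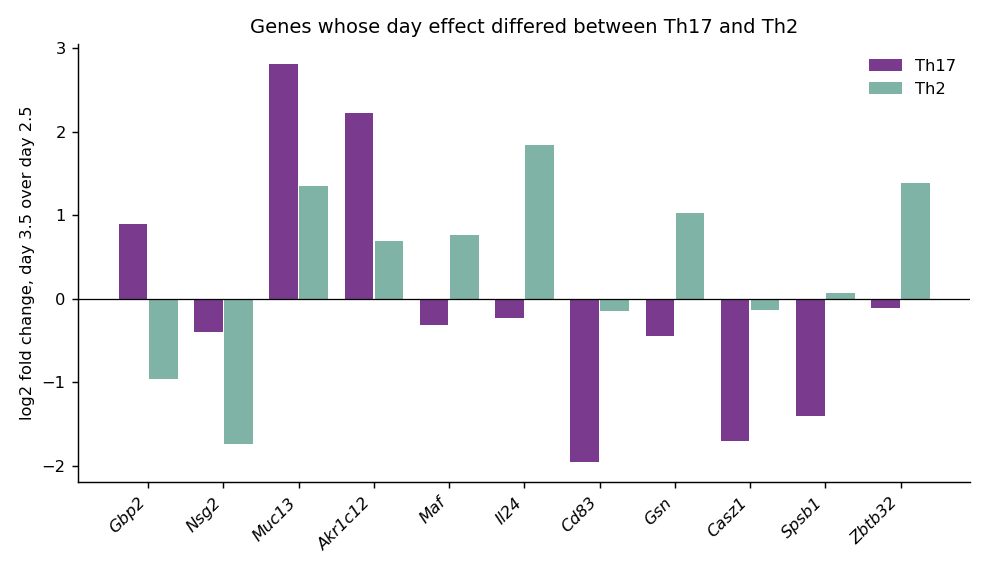
Log2 fold change, day 3.5 over day 2.5, in Th17 (purple) and Th2 (green), from a fit of 8 libraries, for genes named for the difference between the cultures. Gbp2 is above 0 in Th17 and below 0 in Th2, Maf the reverse (but 0.20 in Th17 without WT day 2.5 and 0.22 without NFATc1/ΔS day 3.5), and Il24 and Zbtb32 have tall bars in Th2 beside short ones in Th17.

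Against the Th1 cultures the difference of day effects passed for 112 of 13111 genes (0.854%), 52 higher (0.397%) and 60 lower (0.458%) in Th17. For Th1 the labels give 0.5 µg/ml anti-CD3 and the antibody against IL-4, but no TGFβ, IL-6 or antibody against IFN-γ. The effects of these conditions and of cell type cannot be told apart. The 2 Th1 libraries of day 2.5 differed from each other. Ndrg1 had 59.1 (NFATc1/ΔS) and 451 CPM (WT) in them, against 778 (NFATc1/ΔS) and 642.5 CPM (WT) at day 3.5. Il21 had 20.1 (NFATc1/ΔS) and 73.2 CPM (WT), against 28.6 (NFATc1/ΔS) and 9.04 CPM (WT). The library labelled Th1 WT day 2.5 correlated at 0.961 to 0.977 with the Th17 libraries, while no other Th1 or Th2 library exceeded 0.97. Without it 6857 genes passed, and without its partner Th1 WT day 3.5 6860 passed. Without Th1 NFATc1/ΔS day 2.5 or day 3.5, 3824 to 3827 passed, and without single Th17 libraries 42 to 74.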

How the data were processed

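Poly(A) RNA libraries were made from 700 ng RNA, per the labels' protocols. The authors deposited 1 table per library with 41457 genes, and per the file headers its total gene reads are counts, which include reads that also map elsewhere. The genome build was GRCm38, per the submitters' processing notes; the aligner, the counter and the use of strand in counting are not stated in the labels or headers, so a gene and an overlapping antisense gene cannot be told apart. Totals were 13417121 to 17774400 per library over all 12, and 79.44 to 80.95% of the reads in the Th17 libraries were unique. RPKM given in the text was not taken from the deposited tables but computed from the exon counts and exon lengths.

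The comparison used edgeR 4.0.16 in R 4.3.3 with TMM, filterByExpr (minimum count 10, minimum total 15), robust glmQLFit and a Benjamini-Hochberg threshold of 0.05 over all genes tested. The model held genotype as a block and day, with 1 residual degree of freedom moderated over genes (median prior 37). Pairing comes from the genotype labels, since no replicate numbers are shared. The common coefficient of variation between pairs was 7.9%. Standard errors were derived from the fold change and the F statistic, and a prior count of 2 was added for log2 CPM values. The difference of day effects between cultures was fitted on 8 libraries, with culture by genotype as blocks.

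Named genes were a fixed set, up to 14 largest changes each way (mean log2 CPM of at least 1, same direction in both pairs), up to 4 genes of smallest p per list with defining members, and up to 8 per difference between cultures. Some genes are left unnamed here, although every test and count includes them. The comparison, the 37 gene lists and the rules were chosen with earlier results of these data known. Alternatives were RLE size factors, no read filter, DESeq2 1.42.0, limma-voom (limma 3.58.1), unique reads, exon reads, no genotype block, no robust fit, 8 or 12 libraries in 1 fit, a test against a log2 fold change of 0.5, and leaving out each library or pair. Promoters came from RefSeq on GRCm38.p6, and the start farthest upstream was used for each gene. The method was tested on simulated data.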

Additional observations from a re-analysis of the deposited data

Results flagged for a closer look

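The day effect differed between Th17 and Th2 for 195 genes. The genes named for this difference had values, Th17 minus Th2 on the log2 scale, of 1.86 for Gbp2, 1.46 for Muc13, 1.53 for Akr1c12, 1.34 for Nsg2, -1.07 for Maf, -2.07 for Il24, -1.81 for Cd83, -1.46 for Gsn, -1.57 for Casz1, -1.47 for Spsb1 and -1.49 for Zbtb32, each past edgeR's test of the difference. Gsn, which encodes the actin-severing protein gelsolin, fell in Th17 (-0.44) and had 1.02 in Th2. Zbtb32, a zinc finger repressor gene, had -0.11 in Th17 and 1.38 in Th2.

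Against Th1 the difference passed for 112 genes. The genes named by smallest p were Eno1b (-8.02), Cntnap2 (-6.41), Arhgap19 (4.33), Ahcy (4.78), Fhl2 (-4.31), Arl2bp (3.18), C9orf72 (-4.50) and Trim12a (9.46), Th17 minus Th1 on the log2 scale. These values include the library labelled Th1 WT day 2.5, which correlated at up to 0.977 with the Th17 libraries. They also include Th1 NFATc1/ΔS day 2.5, which differed from it.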

How the results depend on the processing

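The number of genes that passed between the days in Th17 was 4365. It was 1664 with DESeq2, 2851 without the genotype block that pairs the libraries, 575 against a log2 fold change of 0.5 and 0 with all 12 libraries in 1 edgeR fit (2770 at an unadjusted p under 0.05), and with single libraries left out it was 612, 992, 1437 and 1820, and 2582 and 3056 with a pair left out. For Th17 minus Th2 the 195 genes became 519 without the read filter, 95 with DESeq2 and 0 with all 12 libraries (435 unadjusted), with 177 to 346 when a library was left out. For Th17 minus Th1 the 112 became 606 without the read filter, 877 with DESeq2, 196 with limma-voom and 1333 with all 12 libraries, with 42 to 6860 when a library was left out.

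Of 198 named genes that passed, 197 also passed with RLE size factors, 198 with limma-voom, 192 with unique reads, 151 without the block and 143 with DESeq2, and 68 passed in all 4 fits that leave out 1 library. In those fits Maf lay between -1.02 and 0.22 (0.20 without WT day 2.5, 0.22 without NFATc1/ΔS day 3.5), Cd8a between -1.07 and 0.0299, Bpifa2 between -5.28 and 0.75, and Klf2 between -0.78 and 0.0667. Those fits held no genotype term, so differences between the genotypes also enter their values. Within the genotype pairs Bpifa2 changed by -1.91 (NFATc1/ΔS) and -2.03 (WT), and Cd8a by -0.52 (NFATc1/ΔS) and -0.39 (WT). The reversed values did not pass, and the cause was not tested. Of 37 list medians, 7 changed sign without WT day 3.5, 5 without either genotype pair, 3 without either day 2.5 library, 2 without NFATc1/ΔS day 3.5 and 2 with RLE size factors, the S100 list (-0.01) and the γδ T and innate lymphoid list (0.00). With 1 library per group, the spread rests on 1 residual degree of freedom and its moderation over genes.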
